A study of Mus musculus with 12 samples.

Results

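The heat shock genes of brown fat described here are the cytosolic and mitochondrial chaperones and their co-chaperones: the protein-coding genes of GENCODE M21 (mouse genome GRCm38) whose symbols start with Hspa, Hspb, Hspd, Hspe, Hsph, Hsp90, Hsf, Bag, Dnaja, Dnajb or Dnajc. The endoplasmic reticulum chaperones Hspa5, Hsp90b1, Dnajb9, Dnajb11 and Dnajc3 were left out by the rule. The set held 82 of the 54356 genes in the files, and 69 of the 82 passed the filter on low counts, as did 13876 genes in all. Members were chosen by symbol and not by their values.

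Interscapular brown adipose tissue is the heat-producing fat depot between the shoulder blades. Its poly(A) RNA was sequenced from 12 male wild type C57BL/6N mice aged 20 weeks, 1 library per mouse. The labels put 6 mice in the group cold, kept alone at 4 °C for 24 h before the tissue was taken, and 6 in the group ctrl, from a colony kept at 22 to 24 °C. The treatment text is attached to all 12 samples, so the housing of the ctrl mice on the last day is not given apart. No mouse carried an engineered allele, and mouse numbers were not shared between the groups. The labels' extraction text names eWAT although the tissue label is interscapular brown fat, and the series text gives 3 animals where the labels give 6 per group. Animals are named below by group and mouse number.

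The libraries held 15984872 to 31423954 assigned reads. The 8 brown adipocyte markers summed to 19680 to 27742 CPM (read counts scaled to a common total per library) in ctrl and 24943 to 34128 in cold. Fabp4 and Ucp1 had the highest levels in that sum, and the markers did not move as 1 block. Ppargc1a, a cold-induced coactivator, rose from 53.7 ± 8.60 to 315.6 ± 73.3 CPM (SD, n = 6), and Elovl3, Cidea and Fabp4 also passed as higher. Adipoq fell without overlap between the groups (log2 fold change -0.63). Ucp1 (0.22), Plin1 (0.14) and Cox8b (-0.52) did not pass. The libraries also held RNA of skeletal muscle genes, and none of 14 muscle markers was at 0: their summed level ran from 179 to 1692 CPM in ctrl and from 218 to 5273 in cold, none of the 14 passed the test, and their median log2 fold change was 1.15. The highest sum was in cold 15. Several results that rest on cold 15, or on ctrl 2, in which transcripts of very short effective length took most of the TPM, are given with and without them. In a bulk tissue, fewer cells of a type and less RNA per cell cannot be told apart.

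Heat shock proteins are molecular chaperones: they bind unfolded or newly made proteins and keep them from aggregating. HSP70 proteins work with J-domain partners (the DNAJ families) that bring them clients, and with exchange factors of the HSP110 and BAG families that let the client go, while HSP90 finishes the folding of kinases and receptors, and the HSP60 and HSP10 chaperonin folds proteins imported into mitochondria. Heat shock factor 1 drives the inducible members by binding repeated GAA units, called heat shock elements, in their promoters, and brown fat, which makes heat in dense mitochondria, depends on protein import and folding there.

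In cold, 22 of the 69 tested members were higher, 4 were lower and 43 did not pass the test (edgeR quasi-likelihood test, Benjamini-Hochberg adjusted over all 13876 genes, threshold 0.05). Of all genes tested 31.6% passed, made up of 16.2% higher and 15.4% lower in cold, and of the members 37.7% passed. The share of members past the threshold was thus near that of all genes. The split between directions was not: 2246 genes in all were higher and 2134 lower. With library totals in place of TMM factors the members split into 26 higher and 2 lower, and all genes into 2895 higher and 1409 lower. The median log2 fold change of the tested members was 0.16, beside -0.01 for all genes tested. No overlap between the 6 ctrl and the 6 cold animals was seen for 12 members, all with cold above ctrl, where 8.94% of all genes had cold above and 7.36% had cold below without overlap. The summed level of all members was 6434 to 7507 CPM in ctrl and 8487 to 9411 CPM in cold, so the lowest cold animal stood above the highest ctrl animal. Without ctrl 2 and cold 15, 19 members were higher and 18 of the 22 were among them.

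**Figure D1:**
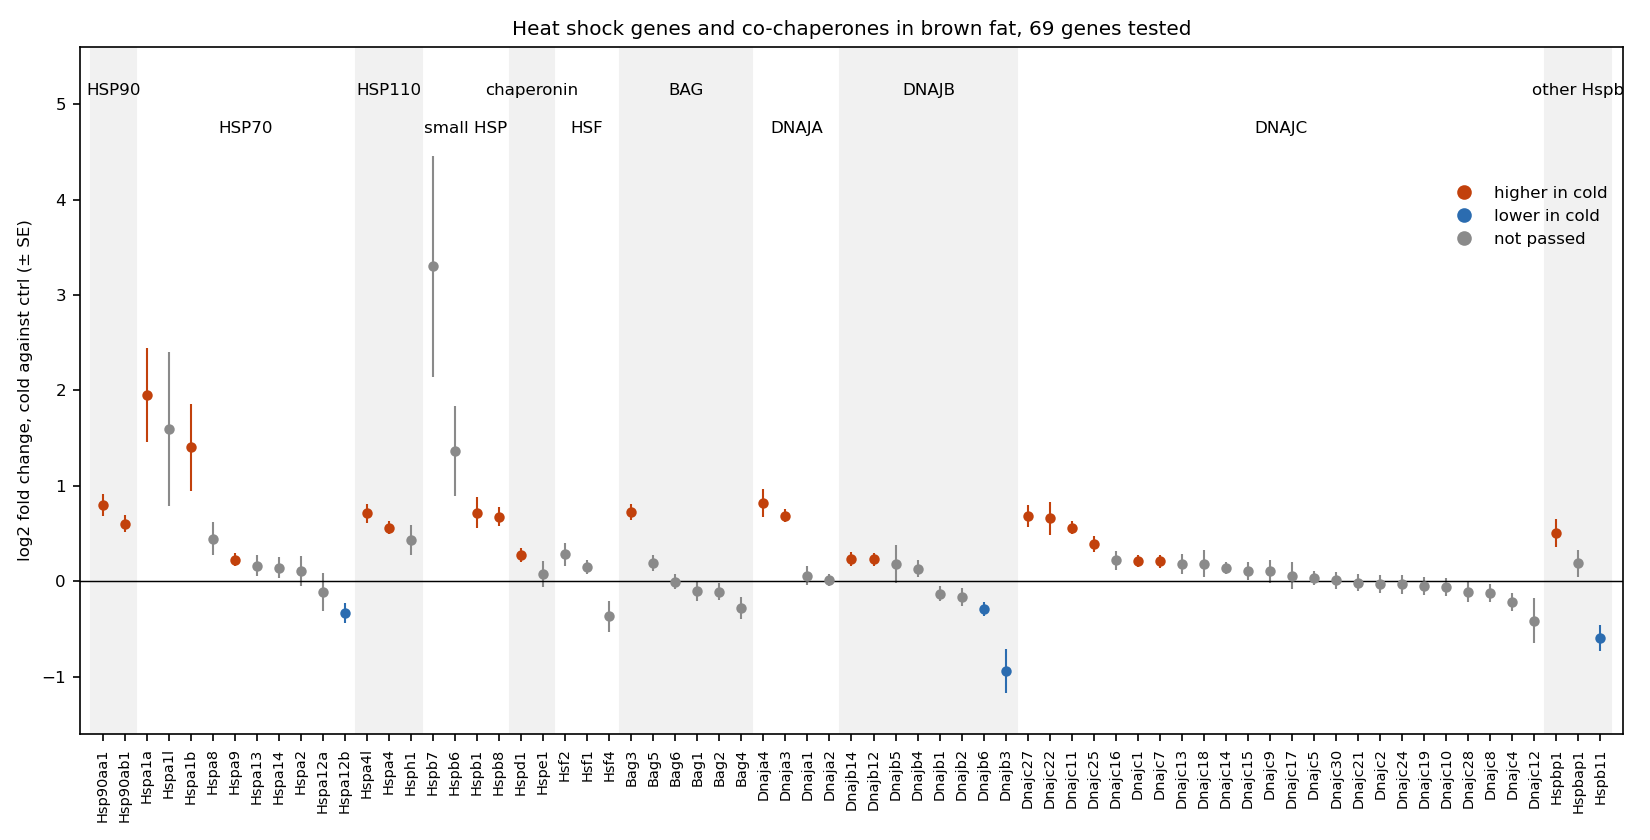
Log2 fold change of cold against ctrl (vertical axis) with its standard error for each of the 69 tested members, grouped by family along the horizontal axis. Orange points passed the test as higher (22), blue as lower (4), and grey points did not pass. Both HSP90 genes and the HSP110 genes stand above 0, while the BAG, DNAJB and DNAJC families spread around 0 and Hspb7 has the widest error.

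By family, the share called ran from 0% (heat shock factors) to 100% (HSP90), and most families held few genes. Of all genes tested 31.6% were called, 16.2% as higher and 15.4% as lower. The shares of the HSP70 genes (40%) and DNAJC genes (25%) were near that. Both HSP90 genes were higher. Among the HSP70 genes 3 of 10 were higher and 1 lower, among the HSP110 genes 2 of 3 were higher, among the DNAJA genes 2 of 4, among the DNAJC genes 6 of 24, and among the BAG genes 1 of 6. The DNAJB genes had 2 higher and 2 lower of 8 tested, with a median log2 fold change of 0.00. None of the 3 tested heat shock factors passed. A list of 12 cytosolic chaperones, which holds the heat-inducible Hspa1a, Hspa1b, Hsp90aa1, Hsph1, Dnajb1, Hspb1 and Bag3 and also Hspa8, Hsp90ab1, Dnaja1, Hspa4 and Hspa4l, had 8 higher and none lower, a median of 0.66 and 6 genes without overlap, and the 9 mitochondrial members had 4 higher and none lower with a median of 0.11. These lists were drawn up with earlier results of these data known. Of all genes tested, 8.94% had cold above ctrl without overlap.

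Levels were compared between genes per kilobase of transcript (CPM per kb). In ctrl the constitutive HSP70 gene Hspa8 (440.1 ± 122.4, SD, n = 6) and the mitochondrial HSP70 gene Hspa9 (418 ± 18.4) stood highest and did not differ beyond their spread. Hsp90ab1 (314 ± 36.7) and the chaperonin gene Hspd1 (270.0 ± 18.7 CPM per kb) followed, then Bag1 (205 ± 23.4), Hspe1 (193 ± 35.7), Dnaja3 (145 ± 9.82) and Dnajc15 (125 ± 23.5). Bag1 and Hspe1 lay within each other's spread, as did Dnaja3 and Dnajc15. In cold, Hsp90ab1 reached 476 ± 30.1 CPM per kb, beside 487 ± 18.5 for Hspa9, and Dnaja3 reached 234 ± 4.74, beside 204 ± 41.8 for Hspe1, a difference within the spread of Hspe1. The strictly inducible genes Hspa1a and Hspa1b ranked 69 and 66 among the 82 members in ctrl.

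**Figure D2:**
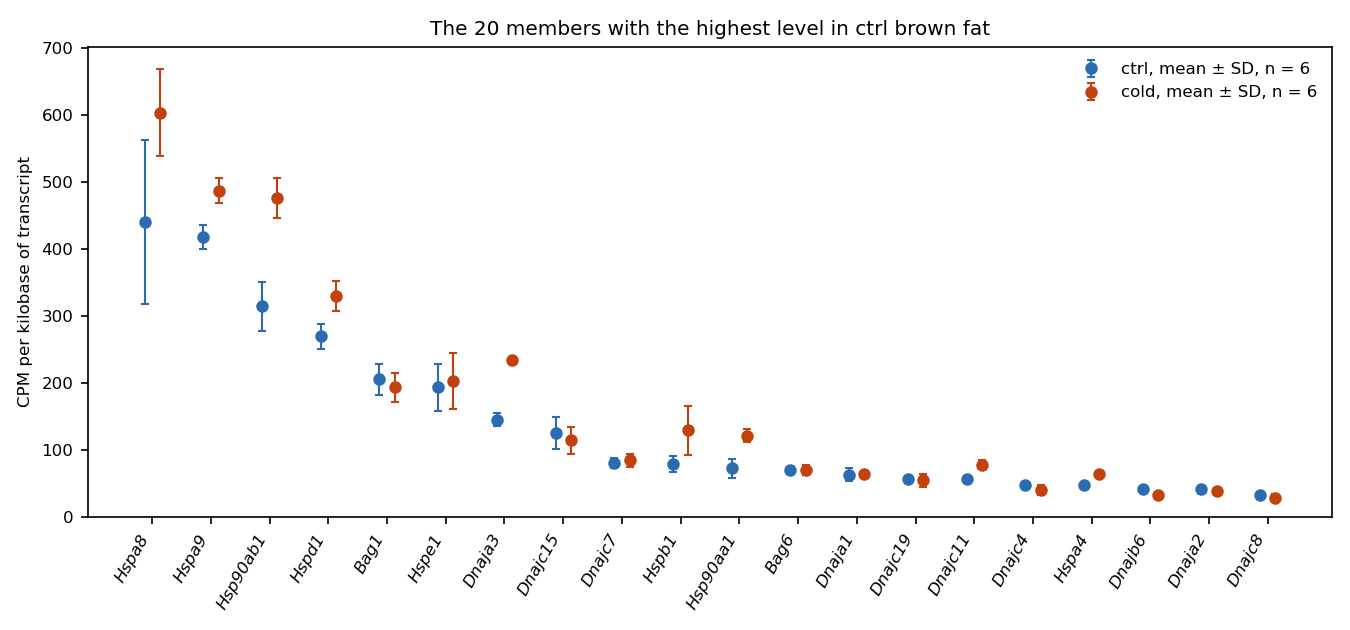
Mean level with SD (vertical axis, CPM per kilobase of transcript, linear from 0) in 6 ctrl animals (blue) and 6 cold animals (orange) for the 20 members with the highest ctrl level, in that order. Hspa8 has the widest spread in ctrl, and Hsp90ab1, Dnaja3 and Hsp90aa1 show cold levels clear of their ctrl levels.

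The cytosolic HSP90 pair rose in cold without overlap between the groups. Hsp90aa1 (chr12:110690605-110702728, minus strand), the stress-inducible HSP90, had a lowest, median and highest level of 144, 167 and 243 CPM in ctrl and 286, 318 and 339 CPM in cold. Its log2 fold change was 0.80 ± 0.11 (SE, adjusted p = 4.5e-05). Hsp90ab1, the constitutive form, went from 670.0, 781 and 886 CPM to 1134, 1168 and 1343 CPM, with a log2 fold change of 0.60 ± 0.09 (adjusted p = 5.5e-05). The lowest cold animal exceeded the highest ctrl animal for both genes, and in cold 4 Hsp90ab1 stood above the other cold animals. Both kept their direction and stayed past the threshold under each of the 23 alternatives run.

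Hspa8, the constitutive cytosolic HSP70, did not pass the test. It ranged from 530.0 to 1294 CPM in ctrl with a median of 795 and from 1095 to 1432 CPM in cold with a median of 1202. The log2 fold change was 0.45 ± 0.18 (adjusted p = 0.067). The groups overlapped because 2 ctrl animals, ctrl 5 with 1206 CPM and ctrl 6 with 1294 CPM, stood inside the cold range, while the other 4 ctrl animals reached at most 810.3 CPM. Without ctrl 5 the log2 fold change was 0.55 (adjusted p = 0.028) and without ctrl 6 it was 0.58 (adjusted p = 0.012). Leaving out either of these highest ctrl animals widens the difference by construction. With both kept Hspa8 also passed in DESeq2 (adjusted p = 0.026) and in limma-voom (adjusted p = 0.043). It did not pass in 16 of the 23 alternatives, with an adjusted p of up to 0.21.

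The same 2 ctrl animals were the highest of the 6 for 7 genes of the list of 12 cytosolic chaperones, namely Hspa8, Hsp90aa1, Hsp90ab1, Hsph1, Hspa1a, Hspb1 and Dnaja1. For all genes tested this was so in 11.5%, and for all tested members in 18.8%. The pattern was noticed after the values were seen and is given as a count. The spread within the groups differed between these genes. The coefficient of variation was lower in cold for Hspa8 (32.3% in ctrl and 9.62% in cold), Hsp90aa1 (20.2% and 5.37%), Dnaja1 (17.0% and 6.34%), Hsp90ab1 (11.6% and 6.43%) and Hsph1 (26.9% and 15.4%). It was higher in cold for Hspa1a (21.1% and 93.6%) and Hspb1 (15.2% and 28.3%). Over all members the medians were 11.6% in ctrl and 12.8% in cold. The same animals also had the highest ctrl sums of brown adipocyte markers, 24636 and 27742 CPM against at most 23307 in the other 4, and of endothelial markers, 728 and 848 CPM against at most 704. Elovl3, a brown fat gene raised by cold, measured 144 and 275 CPM in them and at most 107 CPM in the others. Ucp1, Cidea and Cox8b were also highest in ctrl 5 and ctrl 6. The other brown adipocyte markers, Adipoq, Plin1, Fabp4 and Ppargc1a, were not highest in both animals. Plin1 was lowest in ctrl 6 (1434 CPM) and highest in ctrl 10 (1857 CPM). The muscle marker sums of ctrl 5 and ctrl 6 were 1109 and 179 CPM. The part of these differences in the chaperone values was not tested.

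**Figure D3:**
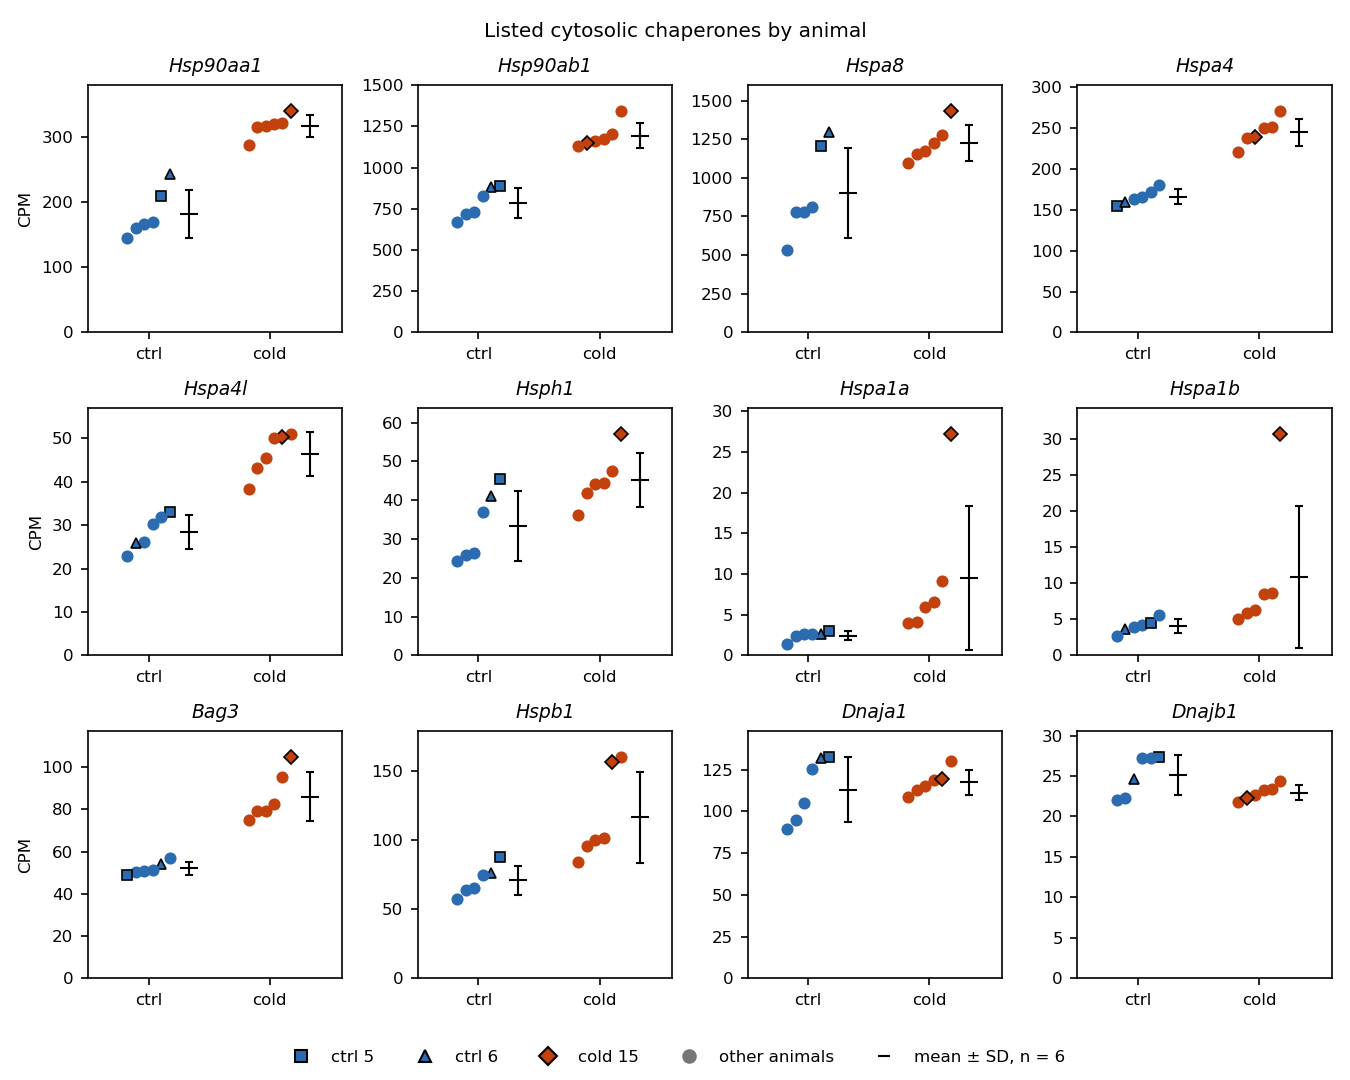
Level in CPM (vertical axes, linear from 0, a scale of its own for each gene) of the 12 listed cytosolic chaperones in each animal, ctrl in blue and cold in orange, with mean and SD beside the points. Squares and triangles mark ctrl 5 and ctrl 6, which stand at the top of the ctrl points for Hspa8 and Hsp90aa1, and diamonds mark cold 15, far above the other animals for Hspa1a and Hspa1b.

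Of the HSP110 genes, which code for exchange factors that reload HSP70, 2 of 3 rose. Hspa4 went from 154, 165 and 181 CPM (lowest, median and highest) in ctrl to 221, 245 and 271 CPM in cold, without overlap (log2 fold change 0.56 ± 0.07, adjusted p = 1.8e-05). Hspa4l went from 22.9, 28.2 and 33.1 CPM to 38.3, 47.7 and 51.0 CPM, also without overlap (0.71 ± 0.10, adjusted p = 5.0e-05). Hsph1 itself, the heat-inducible HSP110, ranged from 24.4 to 45.4 CPM in ctrl and from 36.2 to 57.1 CPM in cold. Its log2 fold change was 0.43 ± 0.16 (adjusted p = 0.051), and the highest ctrl animals were again ctrl 5 and ctrl 6. Hsph1 passed without ctrl 5 (adjusted p = 0.013), without ctrl 6 (adjusted p = 0.033), in DESeq2 (adjusted p = 0.022) and in limma-voom (adjusted p = 0.040). It did not pass in 15 of the 23 alternatives, with an adjusted p of up to 0.21. Leaving out either of its highest ctrl animals widens the difference by construction.

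Bag3 (chr7:128523616-128546981, plus strand), an HSP70 exchange factor that takes clients to autophagy together with the small heat shock protein Hspb8, rose in cold. It measured 48.9, 51.2 and 57.2 CPM in ctrl and 75.0, 81.0 and 104.8 CPM in cold (lowest, median and highest), and the groups did not overlap. The log2 fold change was 0.72 ± 0.08 (adjusted p = 9.1e-06). Its partner Hspb8 went from 47.8, 51.7 and 69.1 CPM to 76.5, 84.2 and 106 CPM, also without overlap (0.67 ± 0.10, adjusted p = 7.4e-05). Ctrl 9 was high for Hspb8 among the ctrl animals and cold 15 among the cold animals. Without cold 15 the log2 fold changes were 0.66 for Bag3 and 0.61 for Hspb8, and both stayed past the threshold. Hspbp1, an HSP70 exchange factor outside the BAG family, rose from 22.5 ± 3.67 to 31.9 ± 7.54 CPM with overlap (0.50 ± 0.14 on the log2 scale, adjusted p = 0.013). The other BAG genes did not pass: Bag1, the most abundant, measured 255 ± 32.8 CPM in ctrl, against 238 ± 30.5 CPM in cold, and the nuclear-cytosolic Bag6 180 ± 12.6 and 179 ± 17.2 CPM.

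Hspa1a and Hspa1b, neighbouring genes on chromosome 17 that code for nearly the same stress-induced HSP70, had low levels with the largest fold changes among the called members. Hspa1a (chr17:34969190-34972156) measured 1.46, 2.61 and 2.95 CPM in ctrl and 3.96, 6.29 and 27.2 CPM in cold (lowest, median and highest). The groups did not overlap, and the log2 fold change was 1.95 ± 0.49 (adjusted p = 0.011). Hspa1b (chr17:34956436-34959238) measured 2.65, 4.06 and 5.65 CPM in ctrl and 5.09, 7.35 and 30.7 CPM in cold, where cold 7, at 5.09 CPM, lay within the ctrl range (1.40 ± 0.45, adjusted p = 0.036). In both genes cold 15, which also held the most muscle marker RNA, stood far above the other cold animals, which reached at most 9.16 CPM of Hspa1a and 8.62 CPM of Hspa1b. Without cold 15 the log2 fold changes were 1.28 (adjusted p = 0.00051) and 0.74 (adjusted p = 0.0067). With the mean muscle marker level as a covariate they were 1.43 (adjusted p = 0.024) and 0.88 (adjusted p = 0.095), so Hspa1b no longer passed. Hspa1b lost its call in 9 of the 23 alternatives, with an adjusted p of up to 0.072 among the fits that left out 1 animal. Hspa1a kept its call in all 23. Of the 50-base windows of their most abundant transcripts, 60.3% of Hspa1a's and 62.3% of Hspa1b's also occurred in another gene, almost all in each other, so reads could have been split between them. Another gene of the cluster, Hspa1l, measured 0.455 ± 0.291 CPM in ctrl, against 1.33 ± 1.77 CPM in cold and did not pass (adjusted p = 0.16). Its highest value, 4.80 CPM, was again in cold 15.

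The small heat shock proteins, which hold unfolded proteins without using ATP, showed 2 patterns. Hspb1 (the mouse Hsp25) measured 57.7, 70.2 and 87.7 CPM in ctrl and 84.4, 101 and 160.3 CPM in cold, with a small overlap (log2 fold change 0.72 ± 0.16, adjusted p = 0.0040). Hspb6 and Hspb7, best known from skeletal and heart muscle, spread far more. Hspb7 measured 0.671, 5.04 and 10.2 CPM in ctrl and 2.57, 14.7 and 208.5 CPM in cold, and its log2 fold change of 3.30 ± 1.16 did not pass (adjusted p = 0.054). Hspb6 measured 11.8, 20.2 and 25.0 CPM in ctrl and 23.1, 31.1 and 138 CPM in cold and did not pass either (1.36 ± 0.47, adjusted p = 0.0503).

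Both genes were highest in cold 15, which held the highest sum of the 14 muscle markers. Among the ctrl animals they were lowest in ctrl 2 and ctrl 6, which held the lowest muscle sums of that group, 208 and 179 CPM. Cryab, a related small heat shock protein of muscle and lens that is not a member, measured 138 CPM in cold 15 and 9.27 to 24.7 CPM in the other cold animals. Without cold 15 the log2 fold change of Hspb7 was 1.51 (adjusted p = 0.19) and that of Hspb6 was 0.71 (adjusted p = 0.027). With the muscle covariate they were 1.25 (adjusted p = 0.040) and 0.75 (adjusted p = 0.023). The part of muscle RNA in the Hspb6, Hspb7, Hspa1a and Hspa1b values was not tested beyond these fits. Hspb2, Hspb3 and Hspb9 were too low to be tested, at no more than 2.71 CPM in any animal.

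**Figure D4:**
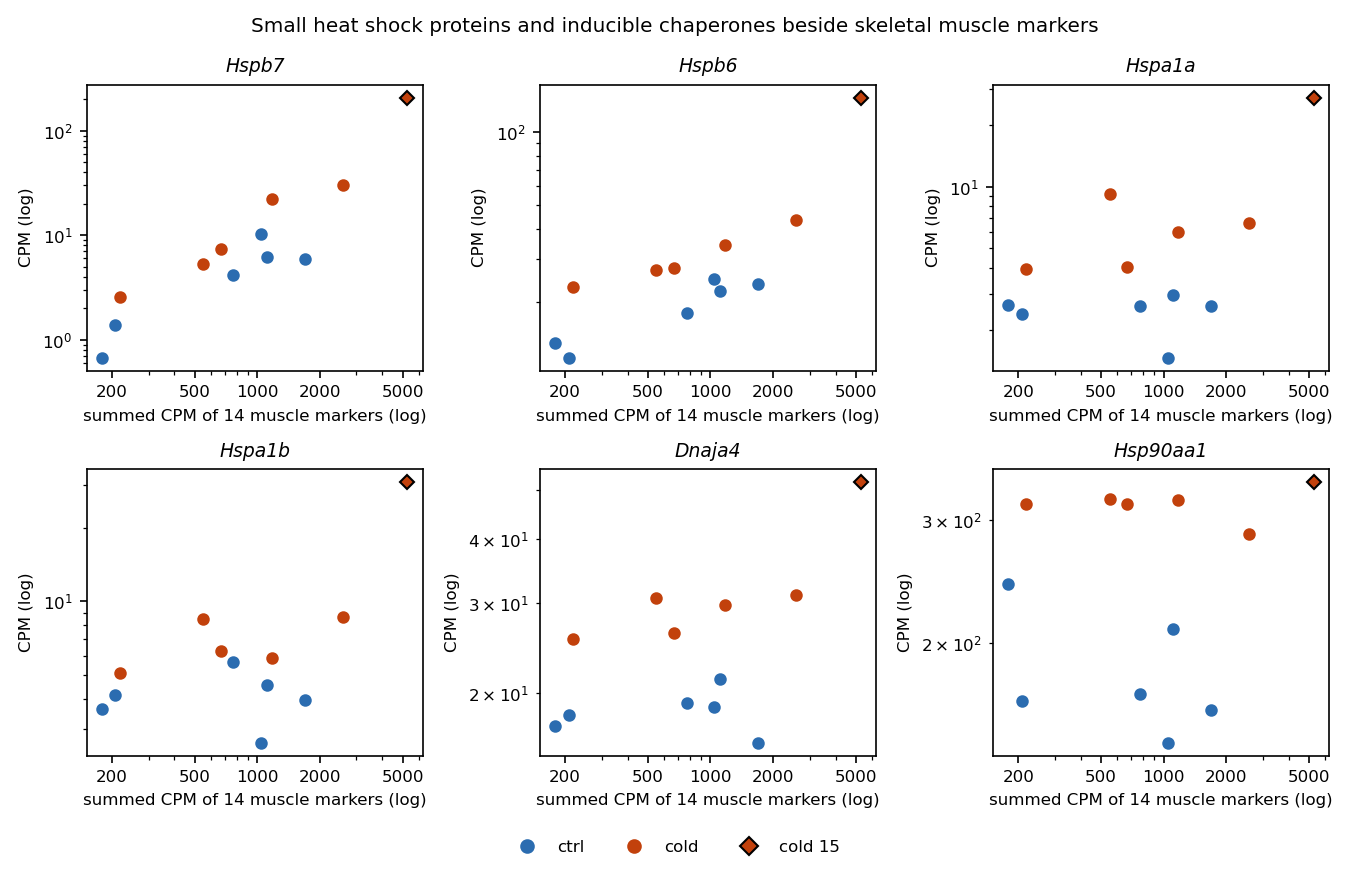
Level of 6 members (vertical axes, CPM, log scale) against the summed level of 14 skeletal muscle markers (horizontal axes, CPM, log scale) in each animal, ctrl in blue and cold in orange, with cold 15 as a diamond. Hspb7 and Hspb6 stand higher in animals with more muscle marker RNA in both groups, whereas the cold values of Hsp90aa1 lie between 286 and 339 CPM at muscle sums from 218 to 5273 CPM.

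The stretch just upstream of the start site is shown for the raised members of largest fold change, since their promoters are where heat shock elements are known to lie. Windows of 250 bases before to 50 bases after each RefSeq start (GRCm38.p6) were searched on both strands for GAANNTTC and TTCNNGAA, the 2 ways in which a pair of inverted GAA units can meet, and for 3 such units in a row in alternating direction with 2 bases between neighbours, which contain both pairs. The 150 bases before the start are printed from 5′ to 3′ along the gene, with GAANNTTC matches in capitals. Hspa1a (chr17:34972157-34972306, minus strand), Hspa1b (chr17:34959239-34959388, minus strand), Hspb1 (chr5:135887769-135887918, plus strand) and Bag3 (chr7:128523433-128523582, plus strand) read:
Hspa1a: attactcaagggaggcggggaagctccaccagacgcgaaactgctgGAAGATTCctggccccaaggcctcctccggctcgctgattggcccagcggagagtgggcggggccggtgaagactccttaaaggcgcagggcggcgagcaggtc
Hspa1b: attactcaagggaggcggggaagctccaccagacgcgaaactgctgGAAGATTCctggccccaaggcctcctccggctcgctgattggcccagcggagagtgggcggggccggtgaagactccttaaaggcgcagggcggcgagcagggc
Hspb1: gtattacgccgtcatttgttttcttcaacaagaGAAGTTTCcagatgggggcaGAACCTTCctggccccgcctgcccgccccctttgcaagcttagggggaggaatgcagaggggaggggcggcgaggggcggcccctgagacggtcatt
Bag3: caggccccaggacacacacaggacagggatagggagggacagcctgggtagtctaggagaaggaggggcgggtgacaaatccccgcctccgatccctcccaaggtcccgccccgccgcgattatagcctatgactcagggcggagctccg

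The match of Hspa1a and that of Hspa1b both lay 104 to 97 bases before the start, and the 2 stretches differed at 1 of 150 bases. Hspb1 had 2 matches, at 117 to 110 and at 97 to 90 bases before the start. Bag3 had no match in the printed stretch and 1 later in its window. Dnaja4, the other gene of this group with an entry, had 2 matches upstream of 1 of its 2 starts, and Hsp90aa1 has no entry in the table. Of the 17 higher members with a window, 8 held GAANNTTC: Hspa1a, Hspa1b, Hspb1, Hspb8, Hspd1, Bag3, Dnaja4 and Dnajc27. Among the 33 members that did not pass 4 held it, among the 4 lower members 1, and among the 11 not tested 2. Of all 65 members with a window 15 held it (23.1%), and of all 27025 genes with a window 9.04% did (7.86% of the 32851 windows). The nearly identical stretches of Hspa1a and Hspa1b are counted as 2. A link between GAANNTTC and the rise in cold was not tested. The other pairing, TTCNNGAA, was found in 1 of the 17, and in 9.60% of all genes.

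The 4 members Hspd1, Hspe1, Hsph1 and Dnajb6 held 3 units in a row, beside 0.66% of all genes, and these were chosen for printing after their values were seen. Hspd1 and Hspe1, which lie head to head on chromosome 1, share 1 such element, whose capitals mark a run of joined units and which is printed along each gene (chr1:55088057-55088078). Those of Hsph1 (chr5:149636286-149636302, minus strand, 16 to 28 bases after a start) and Dnajb6 (chr5:29735850-29735866, plus strand) follow:
Hspd1: ccTTCCGGAAGGTTCTAGAAcg
Hspe1: cgTTCTAGAACCTTCCGGAAgg
Hsph1: gaTTCTGGAAAGTTCtc
Dnajb6: gaGAATCTTCCGGAAcg
The genes that carried the longest elements went different ways in cold: Hspd1 rose by a log2 fold change of 0.27, Hsph1 (0.43) and Hspe1 (0.07) did not pass, and Dnajb6 fell by 0.29. A match of letters is a description and does not show that a factor was bound.

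In mitochondria, the largest rise was that of a J-domain gene. Dnaja3 (chr16:4639989-4707695, plus strand), also called Tid1, the J-domain partner of mitochondrial HSP70, measured 335, 378 and 391 CPM in ctrl and 571, 590.4 and 609 CPM in cold (lowest, median and highest). The groups were far apart and the cold animals lay close together (log2 fold change 0.69 ± 0.07, adjusted p = 1.8e-06, the smallest of all members). Dnajc11, a J-domain protein tied to the organization of cristae, went from 143, 155 and 160.3 CPM to 211, 229 and 241 CPM without overlap (0.56 ± 0.07, adjusted p = 8.6e-06). Both kept their call under each of the 23 alternatives.

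Hspa9, the mitochondrial HSP70 that pulls proteins through the import channel, rose by less. It measured 1216, 1258 and 1362 CPM in ctrl and 1427, 1461 and 1579 CPM in cold without overlap, with a log2 fold change of 0.22 ± 0.07 (adjusted p = 0.016). The HSP60 gene Hspd1 measured 591, 629.8 and 715 CPM in ctrl and 664, 797 and 803 CPM in cold (0.27 ± 0.07, adjusted p = 0.010), and cold 11 with 664 CPM stood below the other cold animals. Hspe1, its HSP10 partner from the shared promoter region, measured 150.1 ± 27.6 CPM in ctrl, against 158 ± 32.3 CPM in cold and did not pass (log2 fold change 0.07, adjusted p = 0.73), with its highest value of 221 CPM in cold 4. Without ctrl 2 and cold 15 the adjusted p of Hspa9 was 0.074. The import-motor J proteins Dnajc15 and Dnajc19 did not pass, at 161 ± 22.6 against 173 ± 18.8 CPM and 40.9 ± 2.47 against 39.5 ± 5.93 CPM.

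Mitochondrial chaperones and proteases outside the set split in both directions, beside 16.2% higher and 15.4% lower over all genes tested. Of 12, 2 were higher (Clpx, the unfoldase of the ClpXP protease, 0.63, and Grpel2, an exchange factor of mitochondrial HSP70, 0.40, as log2 fold changes) and 5 were lower. The 5 were Trap1, the mitochondrial HSP90 (283 ± 10.9 to 232 ± 9.06 CPM, log2 fold change -0.29), the disaggregase Clpb (-0.37), the proteases Spg7 (-0.41) and Htra2 (-0.38), and Hscb (-0.33), a J-domain protein of iron-sulfur cluster assembly. The HSP90 paralogs thus differed in direction, with Trap1 lower and Hsp90aa1 and Hsp90ab1 higher. With library totals as scaling the list had 4 higher and 3 lower.

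**Figure D5:**
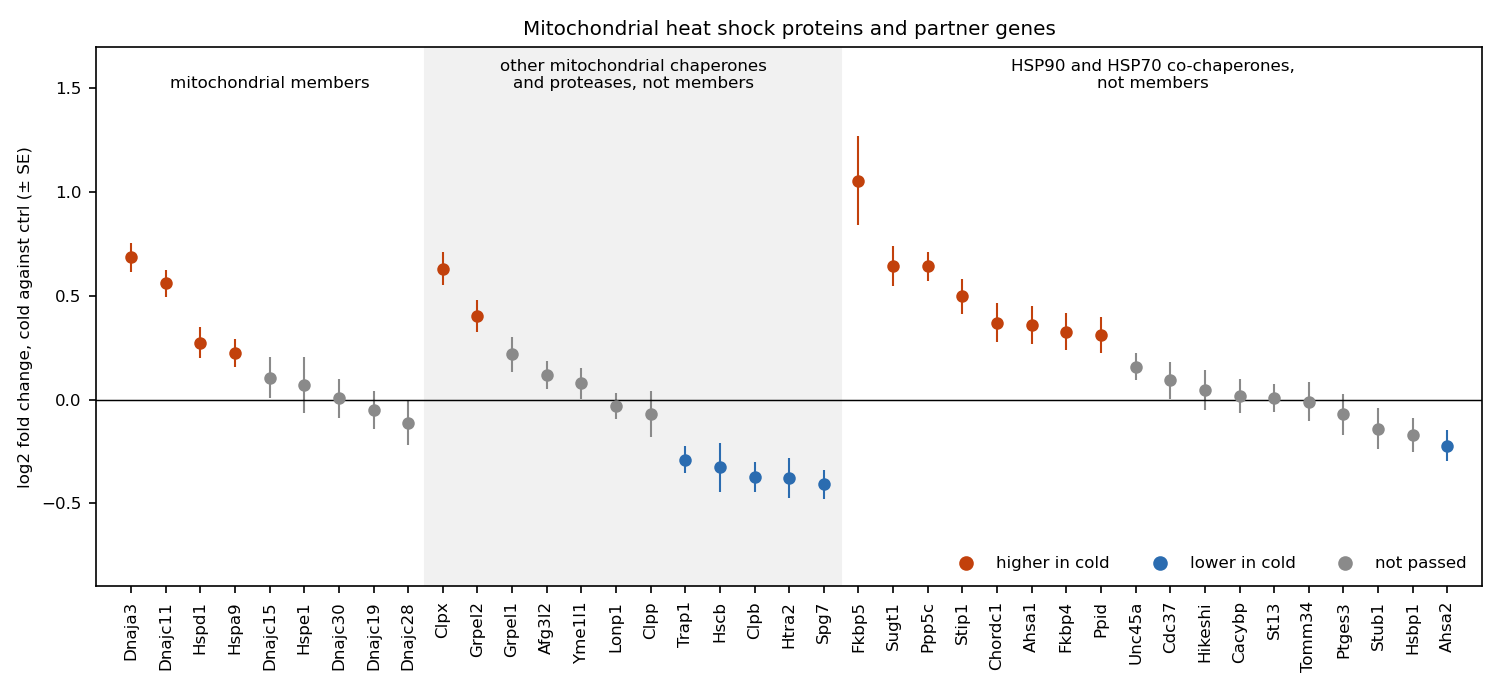
Log2 fold change of cold against ctrl (vertical axis) with its standard error for the 9 mitochondrial members, 12 other mitochondrial chaperones and proteases (shaded) and 18 cytosolic co-chaperones that are not members. Orange points passed as higher, blue as lower, grey did not pass. Dnaja3, Dnajc11 and Clpx stand near 0.6 to 0.7, while Trap1, Hscb, Clpb, Htra2 and Spg7 lie below 0.

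Among the cytosolic and membrane J-domain genes, 2 others had no overlap between the groups. Dnaja4, a DNAJA of the cytosol, measured 16.0, 18.5 and 21.3 CPM in ctrl and 25.6, 30.2 and 51.8 CPM in cold (a log2 change of 0.82 ± 0.15, adjusted p = 0.00062). Its highest value was in cold 15, and without that animal the log2 fold change was 0.64 (adjusted p = 7.3e-05). Dnajc27, a small GTPase with a J domain, measured 7.25, 8.98 and 9.91 CPM in ctrl and 11.7, 13.9 and 18.4 CPM in cold (0.68 ± 0.11, adjusted p = 0.00026). By contrast the abundant genes Dnaja1 and Dnaja2 measured 113 ± 19.2 against 117 ± 7.44 CPM and 96.0 ± 3.24 against 96.8 ± 4.34 CPM. Their log2 fold changes were 0.05 and 0.01, and neither passed. Dnajb1, the classical heat-inducible Hsp40, measured 25.1 ± 2.51 CPM in ctrl, against 23.0 ± 0.934 CPM in cold (a log2 change of -0.13 ± 0.08, adjusted p = 0.22).

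Of the 7 listed J-domain members that reside in the endoplasmic reticulum or its membrane, 4 were higher, beside 16.2% of all genes tested. These were Dnajc25 (33.5 ± 3.74 to 43.9 ± 4.27 CPM, 0.39 on the log2 scale), Dnajb12 (0.23), Dnajb14 (0.23) and Dnajc1 (0.21). Their changes were small, and Dnajb12, Dnajb14 and Dnajc1 lost the call in some of the alternatives. Dnajc22 rose from 4.85 ± 1.11 to 7.67 ± 1.63 CPM (0.66). Dnajc7, a co-chaperone that binds both HSP70 and HSP90, rose from 128 ± 8.38 to 148 ± 9.00 CPM (0.21), but with an offset for the mean effective length of its transcripts the log2 fold change was 0.04 (adjusted p = 0.76). The vesicle proteins Dnajc5 and Dnajc13 did not pass.

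The 4 members lower in cold came from different families. Dnajb6, a J protein that keeps polyglutamine proteins soluble, measured 68.6, 81.1 and 87.2 CPM in ctrl and 61.1, 62.7 and 69.1 CPM in cold (a log2 change of -0.29 ± 0.07, adjusted p = 0.0060). The groups overlapped only at the edge. Hspa12b, an endothelial HSP70 relative, went from 58.2 ± 10.1 to 46.3 ± 4.67 CPM (-0.33 ± 0.11, adjusted p = 0.024). The 6 endothelial markers summed to 606 to 848 CPM in ctrl and 669 to 844 CPM in cold, and none was at 0. Pecam1 was higher (log2 fold change 0.36), Tek was lower (-0.54) and 4 did not pass. The part of endothelial RNA in the Hspa12b values was not tested. Hspb11, an intraflagellar transport protein despite its symbol, went from 5.52 ± 0.868 to 3.64 ± 0.505 CPM (-0.60 ± 0.14, adjusted p = 0.0032).

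Dnajb3, mainly known from testis, went from 3.55 ± 0.382 to 1.82 ± 0.762 CPM (-0.94 ± 0.23, adjusted p = 0.0050). It lies within 8 genes of the Ugt1a cluster on the opposite strand (chr1:88204732-88205782). The kit is strand-specific per the labels, but no source used here gives the strand setting of the counting. Reads of the overlapping genes may therefore not be told apart. The limit is not particular to Dnajb3. Among others, the spans of Dnaja3, Dnaja4, Dnajb6 and Dnajc7 overlap genes on the opposite strand, and Hspd1 and Hspe1 overlap each other. With library totals as scaling, Dnajb6 and Hspa12b lost the call (adjusted p = 0.064 and 0.12), and Hspa12b also lost it without ctrl 5, ctrl 6, cold 7 or cold 15 (adjusted p = 0.051 to 0.065).

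None of the 3 tested heat shock factors, the transcription factors of this response, passed the test at 24 h. Hsf1 measured 21.4, 23.1 and 24.9 CPM in ctrl and 22.1, 26.1 and 27.4 CPM in cold (a log2 change of 0.15 ± 0.07, adjusted p = 0.14). Hsf2 measured 6.65 ± 0.974 CPM in ctrl, against 8.08 ± 1.05 CPM in cold (0.28 ± 0.12, adjusted p = 0.091), with its highest value of 10.2 CPM in cold 15. Hsf4 measured 4.94 ± 0.800 and 3.81 ± 0.786 CPM (-0.37 ± 0.16, adjusted p = 0.094). Hsf1 is controlled mostly at the protein level, which RNA does not show. Hsf3, Hsf5, Hsfy2 and Hsf2bp were too low to be tested. Of 7 tested modulators of heat shock factors, Fkbp4 was higher and the other 6 did not pass. Of 6 tested immediate early genes, which respond within minutes to handling or stress, Jun was higher (37.2 ± 5.04 to 53.4 ± 6.22 CPM) and the other 5 did not pass. The shares called were 14.3% of the modulators and 16.7% of the immediate early genes, against 31.6% of all genes tested (16.2% higher).

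The co-chaperones of HSP90 and HSP70 that are not members by symbol were counted from a separate list of 18. Of these 8 were higher, 1 was lower and 9 did not pass, beside 16.2% higher and 15.4% lower over all genes tested, and the median log2 fold change was 0.13. Ppp5c, a phosphatase that docks on HSP90, went from 82.6 ± 4.14 to 129 ± 10.3 CPM (log2 fold change 0.64 ± 0.07). Stip1, the adaptor that hands clients from HSP70 to HSP90, went from 64.7 ± 5.19 to 91.5 ± 10.8 CPM (0.50), and Fkbp5, a glucocorticoid-induced immunophilin, from 7.53 ± 2.26 to 15.7 ± 4.36 CPM (1.06). Sugt1 (0.65), Chordc1 (0.37), the HSP90 activator Ahsa1 (0.36), Fkbp4 (0.33) and Ppid (0.31) were the others that rose, and Ahsa2 (-0.22) was the 1 that fell. The kinase adaptor Cdc37 (141 ± 8.37 against 150.5 ± 21.3 CPM) and the HSP70-binding protein St13 (141 ± 10.5 against 142 ± 6.80 CPM) did not pass. Of 14 genes of the cytosolic TRiC chaperonin and prefoldin, Cct2, Cct3, Cct5 and Cct8 were higher (log2 fold changes 0.22 to 0.29), none was lower and 10 did not pass, so 28.6% were called, near the 31.6% of all genes tested.

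At the level of single transcripts, 174 of the 420 annotated transcripts of members passed the filter, and 24 passed the test, 22 higher and 2 lower. Of all 30345 transcripts tested 10.3% passed, and 6.21% were higher and 4.06% lower. The smallest p values belonged to Dnajc11-201 (132 ± 5.54 to 212 ± 9.60 CPM, log2 fold change 0.68), Dnaja3-202 (0.69), Hspa4-201 (0.62), Dnaja3-201 (0.77) and Bag3-201 (0.75). Next came Hsp90aa1-202 (44.2 ± 4.29 to 84.7 ± 14.3 CPM, 0.94), Hsp90ab1-201 (0.63), Hspb8-201 (0.70), Dnajb6-203 (47.6 ± 3.75 to 35.3 ± 2.62 CPM, -0.43) and Hspa4l-208 (0.80). Both coding transcripts of Dnaja3 rose, and both tested coding transcripts of Hsp90aa1 did, Hsp90aa1-201 with a log2 fold change of 0.80. For Dnajb6 the fall was in Dnajb6-203, whereas Dnajb6-201 measured 28.9 ± 4.07 CPM in ctrl, against 28.4 ± 2.09 CPM in cold (adjusted p = 0.94).

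Transcript usage, a transcript's part of its gene's output, passed the test in 1 member, Dnajb4, an Hsp40-type gene whose gene level did not pass (log2 fold change 0.13), beside 1.45% of the 7233 genes tested (edgeR diffSpliceDGE gene test, adjusted p = 0.031). Dnajb4-202 held 72.5% ± 7.62 of the gene's TPM in ctrl and 86.4% ± 4.12 in cold. Dnajb4-204 held 18.9% ± 5.61 and 9.86% ± 3.90 (SD, n = 6), and the ranges overlapped for both. The call was lost without ctrl 2 and cold 15 (adjusted p = 0.23) and in 8 of the 12 fits that left out 1 animal, and on simulated counts this test made more false calls than its threshold allows. The next members by p, Hspa4 and Dnajc7, did not pass (adjusted p = 0.11 and 0.14).

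Reads of heat shock genes can also fit processed copies elsewhere in the genome. Over 20% of the 50-base windows of the most abundant transcript occurred in another annotated gene for 10 members, the most for Hspa8 (73.2%), Hsp90aa1 (65.6%), Hspa1b (62.3%), Hspa1a (60.3%) and Hspb1 (58.9%). The copy sharing most with Hspa8, the pseudogene Gm15459, held 0.061% as many reads as Hspa8, and for the other 7 members outside the Hspa1a and Hspa1b pair the share was at most 1.02%, that of Gm15542 beside Dnaja1. The 13 members that did not reach the filter were Dnajb7, Dnajb8, Dnajb13, Dnajc5b, Dnajc5g, Dnajc6, Hsf2bp, Hsf3, Hsf5, Hsfy2, Hspb2, Hspb3 and Hspb9, and their levels say only that they were too low to be compared at this depth.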

How the data were processed

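Each deposited file holds, for 1 mouse, the expected count of reads per transcript (estimated counts, not normalized) and TPM as the authors' Salmon run wrote them, per the file headers. Per the submitters' processing notes, bcl2fastq, cutadapt and Salmon were used with GRCm38; versions and annotation release are not given in the sources used here. Libraries were strand-specific and read in pairs of 50 nt, per the labels.

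Transcripts were tied to GENCODE M21 genes by identifier: 140137 of 140658 matched, and the 521 others held at most 0.152% of reads. Counts were summed per gene, rounded, filtered with filterByExpr of edgeR at a minimum count of 10, TMM-scaled, and tested with edgeR 4.0.16's robust quasi-likelihood fit over all genes, cold against ctrl, two-sided, adjusted by Benjamini-Hochberg (threshold 0.05, R 4.3.3). The biological coefficient of variation was 20.6%. CPM use TMM library sizes, and CPM per kb sum reads over transcript length. TPM shares, as deposited, served only for usage within a gene, since very short effective lengths (under 50 nt) took up 55.2% of ctrl 2's TPM but 2.36% to 8.41% in the other libraries. Transcript usage was tested with diffSpliceDGE. Nothing states that the animals were processed apart, so p-values measure the spread between these 6 and 6 samples. The scripts were tested on simulated data.

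The members, the gene lists, the tests and the alternatives were chosen with earlier results of these data known. The genes named were 17 fixed members (Hsph1, Hsp90aa1, Bag3, Hsp90ab1, Hspa8, Hspa1a, Hspa1b, Hspa4, Hspa4l, Hspa9, Hspd1, Hspe1, Hspb1, Hsf1, Hsf2, Dnaja1 and Dnajb1), up to 12 that rose and up to 12 that fell of smallest p (only 4 fell), the 10 transcripts of smallest p, members past the usage threshold and, for promoters, those of the 6 largest rises that have an entry (5 do). Other members, among them the other 6 that rose, Hspb6, Hspb7 and Hsf4, are named outside this rule, chosen after their values were seen. Alternatives were other scalings, filters and tools (DESeq2 1.42.0, limma 3.58.1 voom), a length offset, covariates for muscle markers and mouse number, removal of mitochondrial genes, and each animal left out.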

Additional observations from a re-analysis of the deposited data

Results flagged for a closer look

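Among the 36 named genes, 12 single values stood apart from the other 5 animals of their group by Dixon's test at the 95% level, out of 72 groups examined, where chance gives about 1 in 20 groups. Of these values 7 came from cold 15: Hspb7 at 209 CPM, Hspb6 at 138 CPM, Hspb8 at 106 CPM, Dnaja4 at 51.8 CPM, Hspa1b at 30.7 CPM, Hspa1a at 27.2 CPM and Hsf2 at 10.2 CPM, each the highest of the cold group. Cold 15 also had the highest summed level of the 14 skeletal muscle markers, 5273 CPM. Cold 4 was the highest cold animal for Hsp90ab1 (1343 CPM) and Hspe1 (221 CPM). Cold 11 was the highest for Dnajb12 (70.9 CPM) and the lowest for Hspd1 (664 CPM). Among the ctrl animals, ctrl 9 was the highest for Hspb8 (69.1 CPM). The values of 1 animal share its library, so these counts are not independent of each other. The 36 genes were also not chosen apart from their values. Hspb6, Hspb7 and Hsf4 were added after their values were seen, and other genes because they passed the test. The rate of 1 in 20 is therefore no measure of whether 12 is more than chance gives.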

How the results depend on the processing

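No paired analysis was possible because the mouse numbers are not shared between ctrl and cold. The count of members higher in cold, 22, ran from 20 to 26 with 1 animal left out and from 17 (no filter) to 26 (library totals, DESeq2) over the other settings. The count of members lower in cold, 4, was 2 with library totals as scaling, 3 to 6 with 1 animal left out and 4 or 5 elsewhere. The 24 transcripts were 16 without ctrl 2 and cold 15, 19 to 29 with 1 animal left out and 25 or 26 otherwise. Members with changed usage, 1, were 0 without ctrl 2 and cold 15, 2 with limma's diffSplice F test and 0 to 3 with 1 animal left out. The cause was not tested. A Simes version of the usage test gave no value for Dnajb4, Hspa4 or Dnajc7, so its count is left out.

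Of the 26 called members, 18 kept direction and call in each of 23 alternatives, and 8 lost the call in some: Hspa1b, Dnajc7, Dnajc1, Hspa12b, Dnajb14, Hspa9, Dnajb12 and Dnajb6. Of 10 named members that did not pass, 6 passed in some alternative: Hspa8, Hsph1, Hspb6, Hspb7, Hsf2 and Hsf4. The log2 fold change turned negative for Dnaja1 without ctrl 14 and for Hspe1 without cold 4, and over the animals left out it ran from -0.00398 to 0.105 and from -0.0445 to 0.162. The TRiC list had 7 higher with library totals and 2 without ctrl 2 and cold 15, against 4. Low counts limit Hspa1a, Hspa1b, Dnajb3 and Hspb11, and the 13 untested members could not be compared at this depth.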
